A study of Mus musculus with 7 samples.

Results

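Red blood cells keep their shape through a protein mesh under the membrane and through the membrane proteins that hold it. The 8 genes described here, *Sptb*, *Ank1*, *Slc4a1*, *Epb41*, *Epb42*, *Rhag*, *Rhd*, and *Dmtn*, were taken by exact gene name from the deposited table of 55401 genes, in which each name stands on 1 row, and all 8 passed the filter on low counts that left 16429 genes for testing. RNA-Seq was performed on knee articular cartilage of male C57BL/6J mice, WT or Trpc1-/- (the Trpc1tm1Lbi allele, which lacks an exon of the calcium channel gene *Trpc1* in all cells), 2 weeks after destabilization of the medial meniscus (DMM), the surgical model of osteoarthritis, carried out in the right knee at 10 weeks of age. By their labels, 4 samples were WT and 3 were Trpc1-/- (the Methods give 3 and 4), each pooled tissue from 2 to 3 mice, and no sample of an unoperated or sham knee was included. According to the Methods the collected tissue took in subchondral bone, and such bone borders on marrow.

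β-Spectrin (*Sptb*) is a building block of the long filaments of the mesh. Ankyrin-1 (*Ank1*) and protein 4.2 (*Epb42*) tether these filaments to band 3 (*Slc4a1*), the chloride-bicarbonate exchanger and most abundant membrane protein of the red cell, and RhAG (*Rhag*) with its relative RhD (*Rhd*) sits in the same tethered complex. At the other end of the filaments, protein 4.1 (*Epb41*) and dematin (*Dmtn*) bind spectrin to short actin filaments. Inherited defects of band 3, ankyrin, spectrin, or protein 4.2 cause spherocytic anemia, and the genes are transcribed strongly in erythroblasts, the nucleated red cell precursors of the marrow. *Ank1* and *Sptb* are also expressed in skeletal muscle, and *Epb41* and *Dmtn* in many tissues.

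The genes lie apart in the genome, except that *Epb41* and *Rhd* share a chromosome. In GRCm38, GENCODE places *Sptb* (ENSMUSG00000021061) at chr12:76580488-76710547, *Ank1* (ENSMUSG00000031543) at chr8:22974844-23150497, *Slc4a1* (ENSMUSG00000006574) at chr11:102348824-102366203, and *Epb42* (ENSMUSG00000023216) at chr2:121017891-121037072. *Epb41* (ENSMUSG00000028906) lies at chr4:131923413-132075321, *Rhd* (ENSMUSG00000028825) at chr4:134864536-134896172, *Rhag* (ENSMUSG00000023926) at chr17:40811126-40840754, and *Dmtn* (ENSMUSG00000022099) at chr14:70601263-70636048. Of the annotated genes that overlap them, those inside *Ank1* held at most 105 counts in any sample, against at least 16614 for *Ank1* itself, and those overlapping *Epb41* held at most 83. *Sptb* overlaps *Plekhg3*, a gene on the opposite strand with at most 5493 counts, against at least 20327 for *Sptb*. The counts cover whole genes and do not separate isoforms, of which *Epb41* has 19 annotated transcripts and *Ank1* 17.

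Erythroid genes are commonly bound by GATA1, which recognizes the letters AGATAA or AGATAG, as well as TGATAA or TGATAG, and by KLF1, which recognizes CACCC-like letters, searched here as CCNCNCCC. RefSeq promoter windows of 300 bases (250 before the start site and 50 from it, GRCm38.p6) were at hand for 5 of the 8 genes, in 7 windows. On either strand, a GATA word was present in 6 of these 7 windows, compared with 29.8% of all 32851 promoter windows. CCNCNCCC was present in 4 of 7, compared with 49.5% of all windows, and the TATA word TATAAA in 1 of 7, compared with 13.6%. Matches of CCNCNCCC overlapped each other in *Sptb* and *Epb41*, and no match overlapped a different word. The promoters of 4 genes are shown because each carries a GATA word, with every match in capitals.
Rhag, chr17:40810899-40811198, plus strand: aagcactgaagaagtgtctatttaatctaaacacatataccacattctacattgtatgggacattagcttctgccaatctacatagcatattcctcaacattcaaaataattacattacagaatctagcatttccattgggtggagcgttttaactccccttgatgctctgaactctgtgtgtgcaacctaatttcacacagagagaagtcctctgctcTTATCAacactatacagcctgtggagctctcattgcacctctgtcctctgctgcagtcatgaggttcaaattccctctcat
Rhd, chr4:134864286-134864585, plus strand: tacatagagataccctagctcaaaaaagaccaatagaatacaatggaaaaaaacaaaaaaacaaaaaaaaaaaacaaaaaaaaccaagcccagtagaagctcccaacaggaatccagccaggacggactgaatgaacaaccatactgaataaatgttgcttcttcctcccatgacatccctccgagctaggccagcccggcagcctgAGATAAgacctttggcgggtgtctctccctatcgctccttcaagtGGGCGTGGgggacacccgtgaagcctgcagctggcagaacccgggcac
Epb42, chr2:121036828-121037127, minus strand: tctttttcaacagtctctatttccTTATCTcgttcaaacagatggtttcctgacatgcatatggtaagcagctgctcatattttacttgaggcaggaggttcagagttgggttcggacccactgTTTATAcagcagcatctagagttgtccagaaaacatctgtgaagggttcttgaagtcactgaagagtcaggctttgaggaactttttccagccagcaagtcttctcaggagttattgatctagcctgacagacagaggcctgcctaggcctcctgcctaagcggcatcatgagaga
Sptb, chr12:76710498-76710797, minus strand: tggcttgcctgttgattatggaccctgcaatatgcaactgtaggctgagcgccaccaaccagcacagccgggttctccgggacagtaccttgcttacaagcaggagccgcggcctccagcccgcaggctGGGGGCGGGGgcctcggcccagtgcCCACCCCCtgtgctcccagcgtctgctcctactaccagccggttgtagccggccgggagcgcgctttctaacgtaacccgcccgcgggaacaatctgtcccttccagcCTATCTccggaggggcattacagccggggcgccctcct
Counted from the start site, the GATA word of *Rhag* lay at −31 to −26 and that of *Rhd* at −43 to −38, on opposite strands. In *Epb42* it lay farther upstream, at −226 to −221, with a TATA word at −126 to −121, and in *Sptb* it lay past the start site, at 12 to 17, where 0 is the first transcribed base. *Epb41* has 3 windows, of which 2 held a GATA word and 2 held CCNCNCCC. A match of letters is a description and does not show binding.

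The samples differed in what they contained besides cartilage. Total counts lay between 52142451 (WT replicate 1) and 118254070. WT replicate 1 stood apart, since its correlation with the remaining libraries in log2 CPM averaged 0.947, compared with 0.973 to 0.980 for each of the rest. CPM is the count of a gene relative to the library total after scaling by edgeR's TMM factors. The chondrocyte markers were well expressed, with 8 genes such as *Acan* and *Col2a1* summing to 5402 to 5682 CPM in WT and to 3071, 5831, and 3289 CPM in Trpc1-/- replicates 1 to 3. A list of 13 erythroid markers, none of them among the 8 genes, summed to 19060 to 36100 CPM in WT and 41670 to 57000 CPM in Trpc1-/- samples. Most of each sum came from the hemoglobin genes. All 13 had a higher mean in Trpc1-/- samples, with 0 of them at 0 counts in any sample. Muscle markers (*Ckm*, *Acta1*, *Myh4*, and *Tnnt3*) summed to 902 CPM in WT replicate 1, 47.6 to 170 CPM in the other WT samples, and 305 to 763 CPM in Trpc1-/- samples. In such bulk tissue, more red cell precursors and more RNA per precursor cannot be told apart. *Trpc1* itself had a logFC (log2 fold change, Trpc1-/- over WT) of −0.44 (SE 0.13), and its counts span the deleted exon and the exons that remain.

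All 8 genes had a higher mean in Trpc1-/- samples than in WT, with no overlap of the samples for 5 genes and some overlap for 3. The 5 were band 3, protein 4.1, protein 4.2, and both Rh genes, at 1.26 to 1.36 times the WT level. β-Spectrin, ankyrin-1, and dematin were at 1.11 to 1.14 times. Every Trpc1-/- sample was above every WT sample for 5 of 8 genes, compared with 7.15% of all tested genes.

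**Figure D1:**
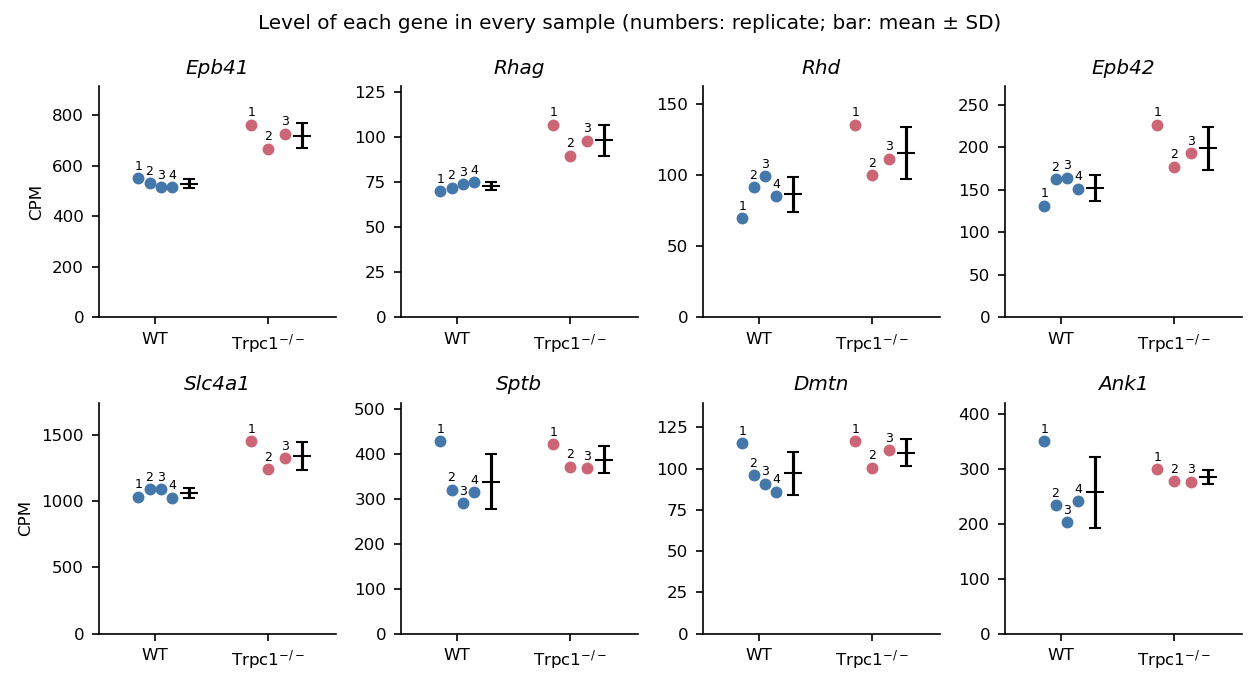
Level of each of the 8 genes in CPM (y axis, from 0) in the 4 WT and 3 Trpc1-/- samples, each point a sample numbered by replicate and each bar the mean ± SD of its group. The 5 genes from *Epb41* to *Slc4a1* have no overlap between the groups, while WT replicate 1 is the highest WT sample for *Sptb*, *Dmtn*, and *Ank1*.

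Band 3 was the most abundant of the 8. *Slc4a1* had 1033, 1088, 1091, and 1025 CPM in WT replicates 1 to 4 and 1452, 1242, and 1322 CPM in Trpc1-/- replicates 1 to 3. The WT samples lay within a narrow band (1059 ± 35.0, SD, n = 4), and the lowest Trpc1-/- sample was above the highest of them (1339 ± 106, SD, n = 3). Its logFC was 0.34 (SE 0.10, unadjusted P = 0.0121, Benjamini-Hochberg adjusted P = 0.410 by the quasi-likelihood test of edgeR). Protein 4.2, which steadies the link between band 3 and ankyrin, was less even. *Epb42* had 131, 162, 164, and 152 CPM in WT and 227, 177, and 193 CPM in Trpc1-/- samples, with WT replicate 1 the lowest. The groups did not overlap, but the gap between them was smaller than the SD of either group (152 ± 15.2, n = 4, and 199 ± 25.3, n = 3). The logFC was 0.38 (SE 0.12, unadjusted P = 0.0133, adjusted P = 0.417 in edgeR).

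The Rh genes encode relatives that are found together in the membrane, RhAG being required for the display of the other. *Rhag* was the steadiest of the 8 genes in WT, at 70.2, 71.9, 73.8, and 75.0 CPM, and had 107, 89.8, and 98.0 CPM in Trpc1-/- samples. Its coefficient of variation was 2.94% among WT samples and 8.73% among Trpc1-/- samples, and the groups were clearly apart. The logFC was 0.43 (SE 0.081, unadjusted P = 0.000741, adjusted P = 0.381 in edgeR), which ranked 28th of the 16429 genes by P value. *Rhd* varied more, with 69.7, 91.6, 99.2, and 85.5 CPM in WT and 136, 100, and 112 CPM in Trpc1-/- samples, so that Trpc1-/- replicate 2 was within 1 CPM of WT replicate 3. Its logFC was 0.42 (SE 0.15, unadjusted P = 0.0224, adjusted P = 0.453 in edgeR), and with CPM on plain library sizes its groups overlapped.

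Protein 4.1, which clamps spectrin to actin at the junctions of the mesh, had a logFC close to that of *Rhag*. *Epb41* had 552, 530.3, 515, and 516 CPM in WT and 763, 667, and 727 CPM in Trpc1-/- samples. Its groups were separated by far more than the spread within WT (528 ± 17.2, SD, n = 4, against 719 ± 48.4, SD, n = 3), with a logFC of 0.45 (SE 0.093, unadjusted P = 0.00151, adjusted P = 0.381 in edgeR). Dematin, the actin-bundling protein at the same junctions, differed less. *Dmtn* had 115, 96.1, 90.9, and 86.0 CPM in WT and 117, 101, and 111 CPM in Trpc1-/- samples, where WT replicate 1 lay among the Trpc1-/- samples (logFC 0.17, SE 0.12, adjusted P = 0.603 in edgeR).

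The filament and its anchor followed the pattern of dematin more strongly. *Sptb* had 429, 320.3, 290.3, and 315 CPM in WT replicates 1 to 4 and 421, 372, and 369 CPM in Trpc1-/- samples. WT replicate 1 was the highest of all 7 samples for β-spectrin, and the other WT samples were below every Trpc1-/- sample. *Ank1* had 350.2, 234, 203, and 240.4 CPM in WT and 299.5, 278, and 276 CPM in Trpc1-/- samples, again with WT replicate 1 above all others. The logFC values were 0.19 (SE 0.15, adjusted P = 0.640 in edgeR) for *Sptb* and 0.15 (SE 0.18, adjusted P = 0.770 in edgeR) for *Ank1*.

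Without WT replicate 1, a choice made after seeing the data, every Trpc1-/- sample was above every WT sample for all 8 genes, compared with 11.4% of all tested genes. WT replicate 1 was the only WT sample that reached the Trpc1-/- samples for *Sptb*, *Ank1*, and *Dmtn*, so this count follows from leaving it out. On plain library sizes without WT replicate 1, also chosen after seeing the data, the groups did not overlap for 5 of 8 (3.12% of all tested genes). They overlapped for *Sptb*, *Dmtn*, and *Rhd*. In the edgeR fit without WT replicate 1, with TMM factors, the logFC of *Ank1* was 0.33 (SE 0.081) and that of *Sptb* 0.33 (SE 0.079). That of *Dmtn* was 0.27 (SE 0.072), and those of the other 5 genes were 0.32 to 0.47. WT replicate 1 was also the WT sample with the most muscle marker RNA (902 CPM). Trpc1-/- replicate 3 had 763 CPM of these markers and the lowest *Sptb* and *Ank1* levels of the Trpc1-/- samples. With the muscle score (the mean log2 CPM of the 4 muscle markers) as a covariate, which was chosen after seeing the data, *Ank1* had a logFC of −0.0014 (SE 0.16) and *Sptb* of 0.082 (SE 0.14), while the 5 other genes apart from *Dmtn* (0.063, SE 0.096) had 0.35 to 0.55. Whether muscle RNA has a part in these levels was not tested.

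By the tests, edgeR called 0 of the 8 genes at an adjusted P under 0.05, as it called 0% of all tested genes. An unadjusted P under 0.05 with a higher level in Trpc1-/- samples was found for 5 of the 8 genes, compared with 4.51% of all tested genes. DESeq2, the method of the study, called 3 of the 8, *Epb41* (adjusted P = 4.16e-06), *Rhag* (adjusted P = 0.000215), and *Slc4a1* (adjusted P = 0.00505), compared with 0.962% of all tested genes called higher. *Slc4a1* lost its DESeq2 call without WT replicate 2 (adjusted P = 0.0776), Trpc1-/- replicate 1 (0.0588), or Trpc1-/- replicate 3 (0.163). The median logFC of the 8 genes was 0.36, against −0.0088 over all tested genes. Since the genes were chosen with earlier results of these data known and share a cell type, these counts describe the list. The libraries carry numbers of a 1300s and a 1700s series, and what the numbers stand for is not stated. Among the 1300s, which take in every Trpc1-/- sample and WT replicates 1 and 2, the logFC was 0.34 for *Slc4a1* and 0.41 to 0.52 for *Epb41*, *Epb42*, *Rhag*, and *Rhd*, whereas *Sptb* (0.049), *Dmtn* (0.052), and *Ank1* (−0.037) were within their standard errors of 0. DESeq2 called *Rhag* alone of the 8 there (adjusted P = 0.0456, against 0.0525 for *Epb41* and 0.154 for *Slc4a1*). The 1700s hold WT samples only.

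**Figure D2:**
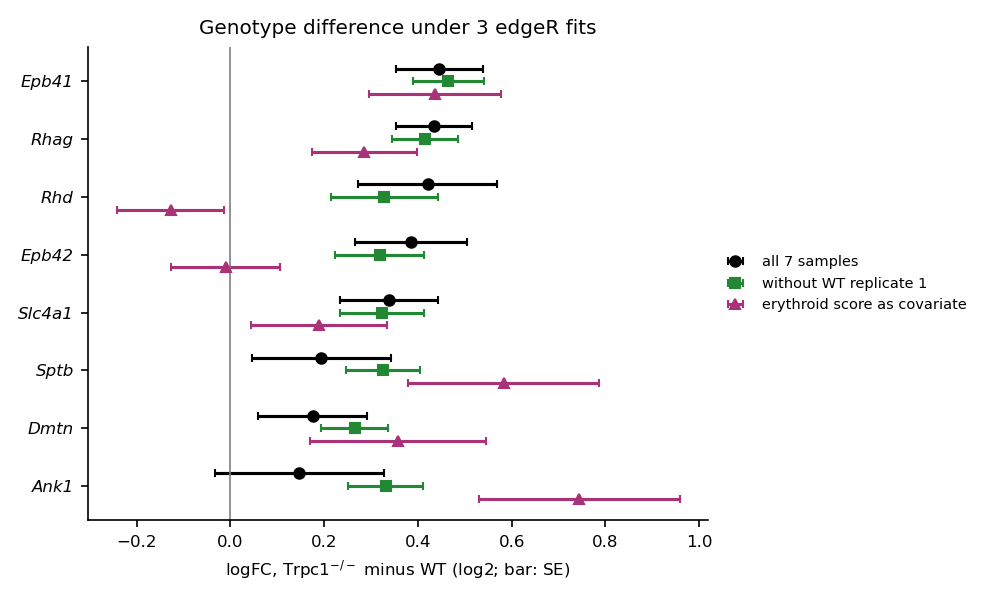
The logFC between Trpc1-/- and WT samples (x axis, log2, bars SE) of each gene in edgeR fits with all 7 samples, without WT replicate 1, and with the erythroid score as a covariate. Without WT replicate 1 the 8 values lie between 0.27 and 0.47, whereas with the erythroid score they spread from −0.13 for *Rhd* to 0.74 for *Ank1*.

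The erythroid markers were higher in the same samples. Of the 13, edgeR called 0, an unadjusted P under 0.05 was found for 9 (4.51% of all tested genes), DESeq2 called 4 (0.962%), and 8 had no overlap (7.15%), all higher in Trpc1-/- samples. The erythroid score, the mean log2 CPM of the 13 markers, was 8.66 to 9.13 in WT and 9.27 to 9.54 in Trpc1-/- samples. The logFC values of the hemoglobin genes were larger than those of the 8 genes, with wide SEs. They were 0.72 (SE 0.26) for *Hba-a1*, 0.75 (SE 0.25) for *Hba-a2*, 0.77 (SE 0.27) for *Hbb-bs*, and 0.77 (SE 0.24) for *Hbb-bt*. *Alas2*, the first enzyme of heme synthesis in red cell precursors, had 0.62 (SE 0.16). The groups overlapped for *Klf1* (0.48, SE 0.20), *Gata1* (0.29, SE 0.17), *Slc25a37* (0.23, SE 0.11), *Epor* (0.22, SE 0.12), and *Tfrc* (0.14, SE 0.11). The α-globin genes are near-identical copies, as are the β-globin genes, so their separate values are uncertain. Whether these differ from the logFC values of the 8 genes was not tested. With the erythroid score as a covariate, *Epb41* kept a logFC of 0.44 (SE 0.14), *Rhag* had 0.29 (SE 0.11), and *Slc4a1* had 0.19 (SE 0.15). In the same fit *Epb42* was at −0.011 (SE 0.12) and *Rhd* at −0.13 (SE 0.12), while *Sptb* (0.58, SE 0.20), *Dmtn* (0.36, SE 0.19), and *Ank1* (0.74, SE 0.21) were higher than without the covariate. The score had no overlap between the genotypes, so the fit has little to tell them apart by, and none of the 8 had an adjusted P under 0.05 in it (0.0932 to 0.958 in edgeR). In each of the 5 genes without overlap, Trpc1-/- replicate 2 was the lowest Trpc1-/- sample, and it was also the lowest of the 3 in erythroid score and the highest in chondrocyte markers. The part of the tissue make-up in these differences was not tested beyond this fit.

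To compare the genes with each other, CPM was divided by exon length in kilobases, taken over the exons of all transcripts. By this measure *Slc4a1* was first in every sample, at 274 ± 21.8 CPM per kb among the Trpc1-/- samples (SD, n = 3) and 217 ± 7.17 among the WT samples (SD, n = 4). Its WT level was 3.99 times that of the next gene, *Rhd* (54.3 ± 7.86). *Epb41* (33.1 ± 1.08), *Rhag* (31.1 ± 0.914), *Epb42* (28.1 ± 2.80), and *Sptb* (27.9 ± 5.06) lay close together in WT. *Ank1* (19.0 ± 4.75) and *Dmtn* (9.90 ± 1.31) followed. The WT ranges of *Rhag* and *Epb42*, of *Epb42* and *Sptb*, and of *Sptb* and *Ank1* overlapped, and those of the other neighbours in the order did not. This order of the 8 was the same in 6 of the 7 samples. In WT replicate 1, *Sptb* ranked 3, *Ank1* ranked 6, and *Epb42* ranked 7. The order rests on the annotated lengths, since with the longest transcript of each gene *Epb41* (63.6 CPM per kb in WT) came before *Rhd* (57.1) and *Rhag* (31.1) came after *Epb42* (37.0) and *Sptb* (32.6). *Slc4a1* was first and *Dmtn* last either way.

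**Figure D3:**
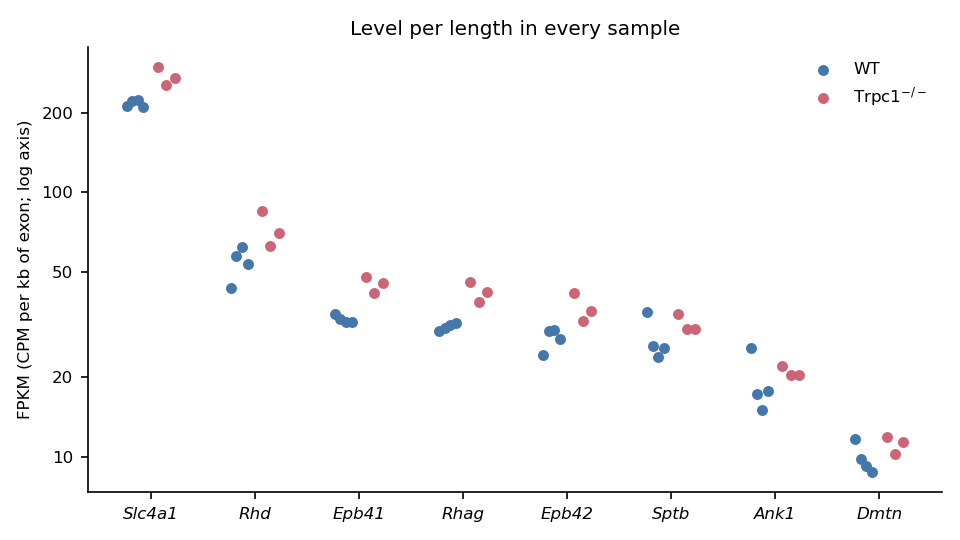
Level per length of the 8 genes (y axis, log scale, CPM per kb of exon, here called FPKM), ordered by their WT mean, with each point a sample. *Slc4a1* stands above the others in all 7 samples, and *Dmtn*, at 8.78 to 11.9, lies below them.

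The balance between the genes was examined as the log2 ratio of each to *Slc4a1* within a sample. WT replicate 1 stood apart from the other samples in several of these ratios. For *Ank1*, the ratio was −3.03 in WT replicate 1, −3.69, −3.89, and −3.56 in the other WT samples, and −3.75, −3.63, and −3.73 in Trpc1-/- samples. For *Rhd*, it was −2.27 in WT replicate 1, −1.95, −1.84, and −1.96 in the other WT samples, and −1.80, −2.02, and −1.95 in Trpc1-/- samples. WT replicate 1 thus had relatively more ankyrin-1 and less RhD transcript per band 3 transcript than the other 6 samples. It had the highest ratio of the 7 samples for *Sptb* (−2.58) and *Dmtn* (−4.17) as well, and the lowest for *Epb42* (−3.12). Without it, the mean ratios of the genotypes differed by 0.0028 for *Sptb*, 0.012 for *Ank1*, −0.011 for *Epb42*, −0.0025 for *Rhd*, −0.058 for *Dmtn*, and 0.090 for *Rhag* (Trpc1-/- minus WT). The ratio of *Epb41* differed by 0.14 and was the only one without overlap between the groups, at −2.74, −2.79, and −2.70 in WT replicates 2 to 4 and −2.63, −2.60, and −2.57 in Trpc1-/- samples. With WT replicate 1 (−2.61) included, those groups overlapped too. These ratios are descriptions, and no test was run on them. WT replicate 1 was left out of them after seeing the data, and the share of other genes without such overlap was not worked out.

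**Figure D4:**
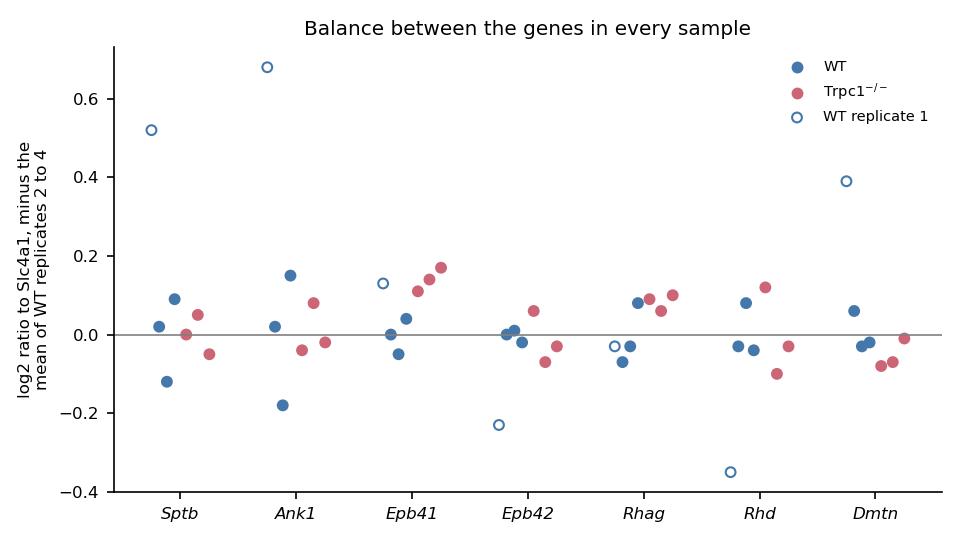
Log2 ratio of each gene to *Slc4a1* in every sample, shown as the difference from the mean of WT replicates 2 to 4 (y axis), with WT replicate 1 as open circles. WT replicate 1 lies far above the others for *Sptb*, *Ank1*, and *Dmtn* and below them for *Epb42* and *Rhd*.

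The other genes of the red cell membrane were described with a list of 27 partners. The Trpc1-/- mean was the higher one for 22 and the lower one for 5, and the median logFC was 0.21. In edgeR 0 had an adjusted P under 0.05. An unadjusted P under 0.05 was found for 7, all higher (4.51% of all tested genes), and DESeq2 called 1 (0.962%). The samples did not overlap for 6 of the 27, all higher in Trpc1-/- samples (7.15%). *Gypc*, a sialic acid–rich membrane protein that protein 4.1 binds, had a logFC of 0.31 (SE 0.085), and *Tmod1*, which caps the actin filaments of the junctions, had 0.30 (SE 0.081). *Xk*, a membrane transporter-like protein linked to the Kell blood group protein, had 0.23 (SE 0.068), *Icam4*, a blood group adhesion molecule, had 0.48 (SE 0.20), and *Car2*, a carbonic anhydrase that supplies band 3 with bicarbonate, had 0.54 (SE 0.21). Of the 7, the groups overlapped for *Icam4* alone.

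The families of these genes have members that serve other cells. Of 20 such paralogs 15 were tested, and the Trpc1-/- mean was the lower one for 13 and the higher one for 2 (median logFC −0.11). Neither edgeR nor DESeq2 called any at an adjusted P under 0.05, and an unadjusted P under 0.05 in edgeR was found for 3, all lower, compared with 5.49% of all tested genes. Among these were the anion exchangers *Slc4a2* (−0.19, SE 0.068) and *Slc4a3* (−0.66, SE 0.21). As a share of its family per length, *Slc4a1* made up 96.5% to 96.9% of the 3 exchangers in WT and 97.4% to 98.0% in Trpc1-/- samples. *Epb41* made up 71.7% to 75.9% of its family of 4 in WT and 78.2% to 82.2% in Trpc1-/- samples, and *Ank1* made up 91.4% to 93.4% and 94.0% to 94.8% of the ankyrins. The groups did not overlap in these 3 of the 4 families with tested paralogs. In that of *Sptb* they overlapped through WT replicate 1 alone (57.9%). The other WT samples had 53.0% to 54.4%, and the Trpc1-/- samples 57.7% to 62.9%. How often such shares lack overlap in other families was not worked out, so the count describes these 4 only. The non-erythroid relatives of *Rhag*, *Rhbg* and *Rhcg*, were not tested, with at most 7 and 49 counts in a sample.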

How the data were processed

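RNA was measured in 7 samples of mouse knee cartilage with ribosomal RNA depleted and stranded libraries. The authors trimmed reads with Cutadapt (2.5), aligned them to GRCm38 with HISAT2 (2.1.0), and estimated coverage with StringTie (2.0.3), from which a StringTie script made the deposited estimated counts per gene. They are whole numbers and not normalized, and rounding left them unchanged. All columns were used. Here, genes above 1 CPM in 2 or more samples were tested by edgeR's quasi-likelihood test (edgeR 4.0.16 in R 4.3.3, TMM factors, genotype alone), with Benjamini-Hochberg adjustment over all 16429 tested genes at 0.05. SEs come from the F statistic. DESeq2 (1.42.0) and limma-voom (limma 3.58.1) were alternatives, and all 3 were tested on simulated data. Log2 CPM used a prior count of 1. Lengths are from GENCODE M21, and promoters are from RefSeq. The genes, lists, and tests were chosen with earlier results of these data known. Named genes were the 8, partners and paralogs with a call or an unadjusted P under 0.05, the 10 genes most like the 8 in pattern, *Trpc1*, and defining markers. *Car2* was listed as *Ca2*, its synonym in RefSeq, and *Ahsp* of the erythroid markers was not analysed here. P values weigh the genotype difference against the spread between pooled samples. A level of 3 counts is 0.0244 to 0.0632 CPM, counting error only, well below all 8 genes. Some listed genes are counted in their lists but not reported here by name. Protein sequences and the promoters of *Slc4a1*, *Ank1*, and *Dmtn* were not used here.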

Additional observations from a re-analysis of the deposited data

Results flagged for a closer look

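The log2 ratio of *Epb42* to *Slc4a1* in WT samples was picked out because 1 sample lay far from the rest. It was −3.12 in WT replicate 1 and −2.89, −2.88, and −2.91 in WT replicates 2 to 4, so that the gap of WT replicate 1 to its nearest neighbour was 0.875 of the whole range, above the 95% critical value of Dixon's test for 4 samples. Levels of the 8 genes and their 7 ratios were examined in WT, 15 sets of 4 values, and this was the 1 that passed, where chance passes about 1 in 20. The 3 Trpc1-/- samples were too few for the rule.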

How the results depend on the processing

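Across 19 alternatives, the logFC of *Epb41* (0.39 to 0.49), *Rhag* (0.29 to 0.49), *Slc4a1* (0.19 to 0.38), *Sptb*, and *Dmtn* stayed above 0, and the median of the 8 genes moved by less than the spread between samples. *Ank1* turned to −0.037 within the 1300s (−0.034 in DESeq2) and with the number series as a covariate. It turned to −0.0014 with the muscle score, and *Epb42* (−0.011) and *Rhd* (−0.13) turned with the erythroid score. The cause was not tested. Of all tested genes, edgeR called 0, DESeq2 294, limma-voom 1, edgeR with the muscle score 1, and edgeR with 1 sample left out 0 to 49, the highest without WT replicate 1. Of the 8 genes, DESeq2 called 3, every other alternative 0. The number at an unadjusted P under 0.05 in edgeR was 5, with 2 by library size alone. It was 2 to 8 with 1 sample left out, 2 without Trpc1-/- replicate 1 and 8 without WT replicate 1. In the fit with all 7 samples, TMM factors, and genotype alone, 4.51% of all tested genes were higher at that P. The share in the alternatives was not worked out, so their counts describe the 8 genes only. DESeq2 called 184 genes, 1 of the 8 (*Rhag*), within the 1300s. With 1 sample left out it called 37 (without Trpc1-/- replicate 3) to 890 (without WT replicate 1) genes, with 62 and 134 without WT replicates 2 and 3 and 79 without Trpc1-/- replicate 1, and 2 to 7 of the 8, and *Slc4a1* was lost without WT replicate 2, Trpc1-/- replicate 1, or Trpc1-/- replicate 3. Of the 8 genes, those without overlap numbered 5 to 8 with 1 sample left out, a choice made after seeing the data. The 8 were reached without WT replicate 1, where the share of all tested genes was 11.4%, compared with 7.15% with all samples. The fold between the highest and lowest level per length was 21.9, or 13 with the longest transcript. With the replicate number as a block, edgeR called 0 genes and 2 of the 8 had an unadjusted P under 0.05 (*Epb41*, *Rhag*), while DESeq2 called 53 genes and 0 of the 8. Samples of equal number deviated from their genotype's mean with correlations of −0.348, −0.205, and −0.0439, and samples of unequal number with −0.332 to 0.364. So few values cannot decide whether equal numbers pair the samples.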

Other observations

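Markers of other marrow cells were also examined. The Trpc1-/- mean was the higher one for 5 of 5 B cell markers (median logFC 0.36), 5 of 5 macrophage markers (0.20), and 7 of 7 neutrophil markers (0.10). Every Trpc1-/- sample was above every WT sample for 2, 1, and 0 of them, compared with 7.15% of all tested genes. In edgeR, 0 of these markers had an unadjusted P under 0.05, compared with 4.51% higher and 5.49% lower among all tested genes. Whether they differ from the red cell genes was not tested. The summed neutrophil markers were 5213 CPM in WT replicate 1, reached 16610 CPM in the other WT samples, and were 12230 to 16110 CPM in Trpc1-/- samples, and those of megakaryocytes were 347 to 707 and 526 to 667 CPM. B cell markers summed to 281 to 559 CPM in WT and 533 to 663 CPM in Trpc1-/- samples, macrophage markers to 406 to 665 and 639 to 739 CPM, and endothelial markers to 163 to 178 and 163 to 170 CPM. Osteoblast markers summed to 958 to 1715 CPM in WT and 973 to 1437 CPM in Trpc1-/- samples, and osteoclast markers to 654 to 1413 and 834 to 1085 CPM. The groups overlapped in all of these sums. The Trpc1-/- mean was the lower one for 8 of 8 chondrocyte markers (median logFC −0.42) and 6 of 6 osteoblast markers (−0.275). It was also the lower one for 3 of 4 osteoclast markers, 3 of 4 endothelial markers, and 1 of 5 megakaryocyte markers. WT replicate 1 had the lowest sum of the 7 samples for erythroid, neutrophil, B cell, megakaryocyte, macrophage, endothelial, osteoblast, and osteoclast markers, although its levels of *Sptb* and *Ank1* were the highest.

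The pattern of the 8 genes was summarized as the mean of their standardized log2 CPM, which was −0.81 to −0.21 in WT and 0.30 to 1.34 in Trpc1-/- samples. Among the 10 tested genes outside the list with the highest Pearson correlation with this mean over the 7 samples were *Trak2* (0.996), *Stradb* (0.993), *Mboat2* (0.991), *Spire1* (0.985), *Map4k5* (0.984), *Cdyl* (0.981), *Usp7* (0.980), *Gfap* (0.979), and *Kif18a* (0.978). The 7 points are the same libraries for every gene, and these values only describe likeness. Among the 8 themselves, the correlation with the mean was 0.978 for *Epb41*, 0.946 for *Slc4a1*, and 0.931 for *Rhag*, and it was 0.571 for *Ank1*. Of the 10 genes, DESeq2 called *Trak2* (logFC 0.26), *Mboat2* (0.30), and *Kif18a* (0.33), and edgeR called 0. Of all tested genes, DESeq2 called 0.962% higher. The 10 were picked for likeness to a mean that was itself higher in Trpc1-/- samples, so their calls follow from that choice.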
